A study of Mus musculus with 8 samples.

Results

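The small heat shock proteins and BAG3 were examined in gastrocnemius muscle from aged male mice with or without muscle NOX4. The group comprises 8 genes, *Hspb1*, *Hspb2*, *Hspb3*, *Hspb6*, *Hspb7*, *Hspb8*, *Cryab* and *Bag3*, which were chosen by gene symbol among the 32390 rows of the count table, and each symbol stands on a single row. All 8 had enough counts to be tested, among 12725 rows tested in all. Control mice were Nox4 fl/fl, with both alleles of *Nox4* floxed and no Cre. NOX4-deficient mice were MckCre:Nox4 fl/fl, in which Cre is driven by the muscle creatine kinase promoter and so acts in differentiated muscle fibers, while the other cells of the muscle keep the gene. All mice were 21 months old and chow-fed, and each genotype was represented by 4 mice, 1 library per mouse. No group with Cre alone was part of the comparison, so that an effect of Cre and an effect of the deletion cannot be told apart.

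Small heat shock proteins share an alpha-crystallin domain and bind partly unfolded proteins without using ATP, holding them until the HSP70 machinery refolds them or passes them on for degradation. BAG3 is a co-chaperone that tethers HSP70 to small heat shock proteins, HSPB8 above all, and directs stretched or damaged filamin at the Z-disc into autophagosomes, a route known as chaperone-assisted selective autophagy. Striated muscle is among the tissues richest in these proteins. HSPB1 and alphaB-crystallin (*Cryab*) protect desmin and actin filaments, whereas HSPB2 and HSPB3 form a hetero-oligomer that appears as myoblasts differentiate and are not typical heat-inducible proteins.

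The sequences just upstream of the annotated start are shown for 3 members that were lower in NOX4-deficient muscle (*Hspb1*, *Hspb7* and *Bag3*) and for *Hspb3*, whose difference had the opposite sign. They come from RefSeq, build GRCm38.p6, whereas the submitters' processing notes name GRCm39 for the counts. Entries were matched by symbol for 6 of the 8 members, and the set used here held none under the symbols *Hspb2* and *Cryab*. Each sequence holds 250 bases, 5′ to 3′ on the strand of the gene, and capitals mark a pair of heat shock element units facing each other, GAANNTTC.
*Hspb1*, chr5:135887669-135887918, plus strand: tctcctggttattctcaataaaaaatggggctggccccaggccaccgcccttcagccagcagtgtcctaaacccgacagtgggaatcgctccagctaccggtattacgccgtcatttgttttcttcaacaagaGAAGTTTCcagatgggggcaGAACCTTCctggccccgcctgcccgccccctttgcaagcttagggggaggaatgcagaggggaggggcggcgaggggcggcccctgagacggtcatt
*Hspb7*, chr4:141420529-141420778, plus strand: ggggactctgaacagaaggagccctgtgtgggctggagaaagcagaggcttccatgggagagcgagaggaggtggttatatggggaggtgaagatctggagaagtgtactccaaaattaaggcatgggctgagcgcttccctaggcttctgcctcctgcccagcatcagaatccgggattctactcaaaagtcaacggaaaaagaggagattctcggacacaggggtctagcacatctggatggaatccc
*Bag3*, chr7:128523333-128523582, plus strand: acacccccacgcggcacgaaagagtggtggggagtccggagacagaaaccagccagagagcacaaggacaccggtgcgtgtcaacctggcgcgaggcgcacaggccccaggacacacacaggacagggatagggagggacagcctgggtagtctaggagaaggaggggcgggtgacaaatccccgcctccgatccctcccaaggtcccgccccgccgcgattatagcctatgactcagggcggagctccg
*Hspb3*, chr13:113663677-113663926, minus strand: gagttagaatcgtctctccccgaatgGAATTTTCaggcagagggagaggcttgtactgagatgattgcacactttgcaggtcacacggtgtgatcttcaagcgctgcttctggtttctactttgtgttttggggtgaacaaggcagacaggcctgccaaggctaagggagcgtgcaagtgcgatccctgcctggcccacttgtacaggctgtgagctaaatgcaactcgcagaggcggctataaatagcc

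The *Hspb1* window held GAANNTTC at 2 places, 117 to 110 and 97 to 90 bases before the start, and *Hspb3* held it once, 224 to 217 bases before the start. *Hspb6* has 2 windows in the table, and the second held it 120 to 113 bases before the start. The motif reads the same on both strands, and it occurred in 6.69% of all 32851 promoter windows of this length. In *Hspb8* and *Bag3* it occurred only in the first 50 bases after the start, and in *Hspb7* in neither stretch. The arrangement TTCNNGAA (7.17% of all windows), the full element of 3 units, GAANNTTCNNGAA (0.466%), and the core of the antioxidant response element, TGACNNNGC (10.2%), were searched on both strands and occurred in none of the members' windows. The element of 3 units contains the other 2 heat shock motifs. A match describes these letters only and is no measure of binding.

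The libraries held between 16350548 and 19804661 counts on genes. A gene is named as called where edgeR's quasi-likelihood test gave a Benjamini-Hochberg adjusted p below 0.05 and its level differed by more than 0.5 on the log2 scale. Of the 12725 rows tested, 6.16% were called, with 443 lower (3.48%) and 341 higher (2.68%) in NOX4-deficient muscle, and 7.75% had an adjusted p below 0.05 at any fold. Control replicate 4 moved these counts most, to 295 and 204 without it. Counts of *Nox4* itself were 85, 48, 35 and 70 in the controls and 29, 43, 42 and 37 in the NOX4-deficient mice, in the order of their replicate numbers, so that the genotypes overlapped (-0.65 on the log2 scale, edgeR adjusted p = 0.207). Without control replicate 1 the difference was -0.36. An exact two-sided permutation test of its normalized level gave p = 0.2, where the smallest p the design allows is 0.0286. The tissue label was borne out by its markers, with the fast myosin *Myh4* at 48429 and 51588 CPM and the skeletal actin *Acta1* at 30107 and 32826 CPM in control and NOX4-deficient muscle (counts scaled by TMM to library totals of equal size, CPM). Pooled tissue was sequenced, so that fewer fibers of a kind and less RNA per fiber cannot be told apart.

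Of the 8 genes, 4 were lower in NOX4-deficient muscle by this test, against 3.48% of all genes tested, and none was higher, against 2.68%. *Hspb1* and *Hspb7* fell most, to 43.1% and 44.7% of the control mean, *Bag3* fell to 61.1% and *Hspb6* to 69.3%. For *Cryab* and *Hspb8* the log2 fold changes were -0.41 and -0.19 and did not pass the test, and for *Hspb2* and *Hspb3* they were 0.44 and 0.50, also not called by edgeR. At an unadjusted p under 0.05, 5 members would count as lower, *Cryab* among them, and 2 as higher, *Hspb2* and *Hspb3*, and DESeq2 and pydeseq2, the study's own tool, each called 1 member higher, *Hspb3*. Counts at this unadjusted limit, here and in the lists below, have no exact share of all genes to be set against. *Hspb2*, at an unadjusted p of 0.018 (edgeR), ranked 1870 of the 12725 rows by p-value, so at least 1870 rows passed this limit. The median log2 fold change was -0.47 over the 8 genes and 0.01 over all genes tested. In 4 members every NOX4-deficient library lay below every control library, against 8.97% of all genes, and in 1 member above, against 7.2% (16.2% for either direction). The summed level of the 8 genes ran from 2786 to 3021 CPM in control muscle and from 1738 to 2341 CPM in NOX4-deficient muscle. Without NOX4-deficient replicate 2 the number of members called lower was 2 and the number called higher 2.

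**Figure D1:**
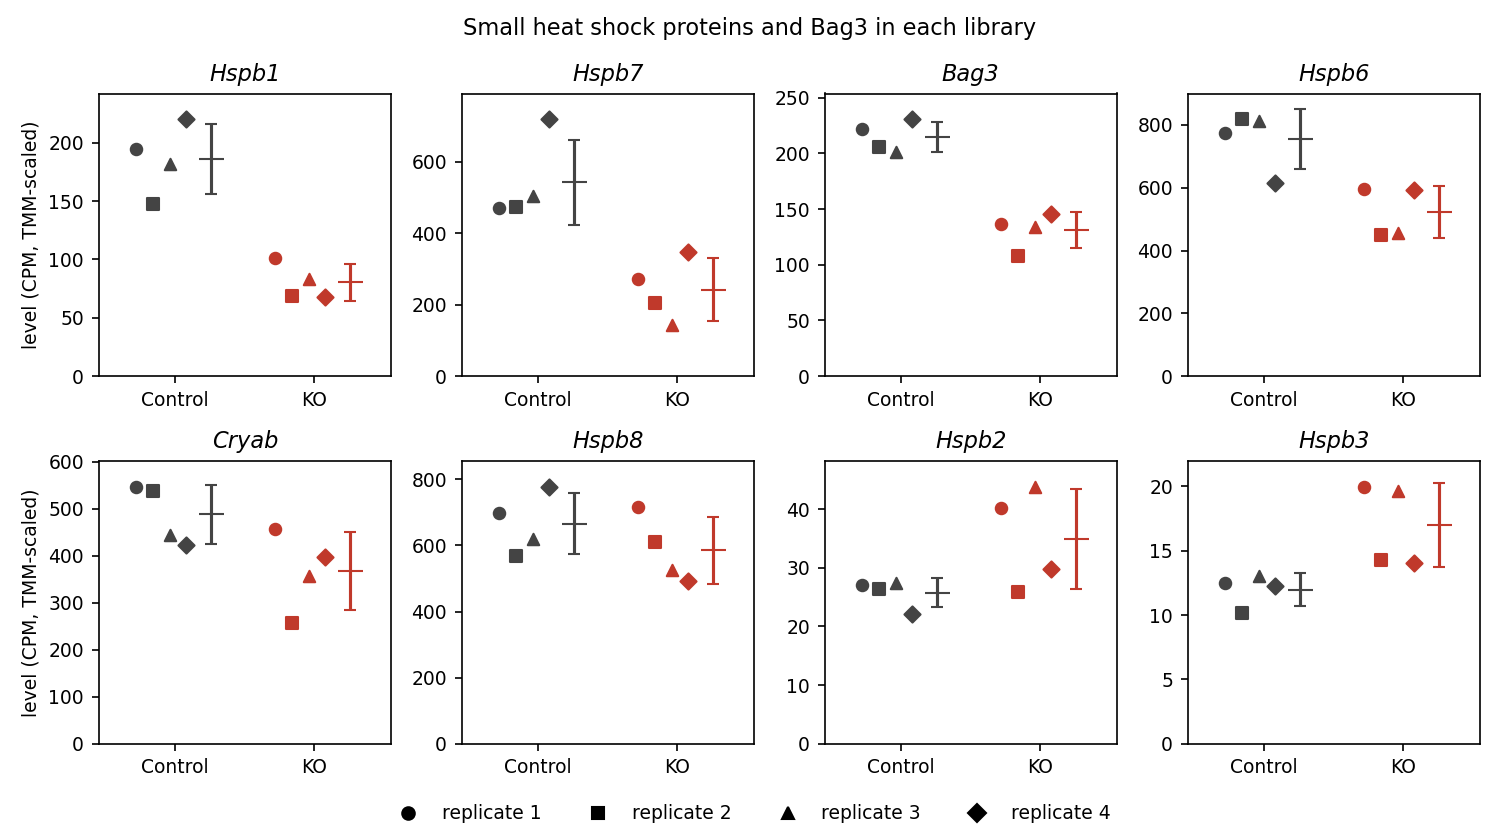
Level of each gene (y axis, CPM scaled by TMM, from 0) in each of the 4 control and 4 NOX4-deficient (KO) libraries. Marker shapes give the replicate number, and the bar beside the points gives the mean and SD. The genotypes do not overlap in *Hspb1*, *Hspb7*, *Bag3* and *Hspb6*, all lower in KO, and in *Hspb3*, higher in KO.

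Levels were compared between genes per kilobase of merged exons (GENCODE M21). In control muscle *Hspb8*, *Cryab* and *Hspb6* were the most abundant, at 341 ± 47.4, 330 ± 42.7 and 329 ± 41.3 CPM per kilobase (SD, n = 4), which did not differ beyond their spread. *Hspb7* (196 ± 42.9) and *Hspb1* (180 ± 29.1) followed and did not differ beyond their spread either, then *Bag3* (83.9 ± 5.35), *Hspb2* (30.9 ± 2.98) and *Hspb3* (15.3 ± 1.60). In NOX4-deficient muscle the order was *Hspb8* (300 ± 51.6), *Cryab* (248 ± 56.5), *Hspb6* (228 ± 35.8), *Hspb7* (87.4 ± 31.5), *Hspb1* (77.8 ± 15.3), *Bag3* (51.2 ± 6.29), *Hspb2* (41.9 ± 10.2) and *Hspb3* (21.8 ± 4.16), in which neighbours among the first 3 again lay within their spread, as did *Hspb7* and *Hspb1*, and *Bag3* and *Hspb2*. With the longest transcript as the length, *Cryab* came first in both genotypes, at 437 and 329 CPM per kilobase.

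*Hspb1* encodes the heat-inducible protein known as HSP25 in mice, which caps actin filaments and is phosphorylated downstream of p38. Its level was 194, 148, 182 and 220 CPM in control replicates 1 to 4 and 101, 68.5, 83.3 and 67.8 CPM in NOX4-deficient replicates 1 to 4. The highest NOX4-deficient library, replicate 1, lay below the lowest control library. It fell by 1.21 on the log2 scale (standard error 0.15, 95% interval -1.55 to -0.88, edgeR adjusted p = 9.78e-04), which placed *Hspb1* at rank 42 of all genes tested by p-value. The call held in all 17 alternative fits, whose log2 fold changes ran from -1.33 to -1.12.

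*Hspb7*, a striated muscle form that binds filamin C, stood at 472, 473, 505 and 719 CPM in control mice and at 272, 206, 144 and 347 CPM in NOX4-deficient mice. Control replicate 4 lay far above the other controls and NOX4-deficient replicate 3 was lowest, but the genotypes did not overlap. It fell by 1.16 on the log2 scale, with the widest interval of the 8 genes, from -1.71 to -0.61 (standard error 0.25), at an adjusted p of 0.0198 by edgeR. Without control replicate 4 this adjusted p was 0.0485. Without NOX4-deficient replicate 2 the log2 fold change was -1.09 (edgeR adjusted p = 0.0707) and with no filter on low counts -1.17 (edgeR adjusted p = 0.0876), so that the call was lost in both.

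*Bag3* stood at 222, 206, 201 and 231 CPM in control mice and at 137, 108, 134 and 146 CPM in NOX4-deficient mice. Even the highest of the latter was well below the lowest control. It fell by 0.71 on the log2 scale (standard error 0.11, 95% interval -0.95 to -0.47, edgeR adjusted p = 0.00283). It was called in all 17 alternative fits, with log2 fold changes between -0.75 and -0.63.

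*Hspb6*, the HSP20 protein that is a substrate of protein kinase A and can also bind BAG3, stood at 774, 818, 813 and 616 CPM in control mice and at 597, 449, 456 and 592 CPM in NOX4-deficient mice. Control replicate 4, the lowest control, lay just above NOX4-deficient replicates 1 and 4. It fell by 0.53 on the log2 scale (standard error 0.13, 95% interval -0.82 to -0.24, edgeR adjusted p = 0.0334), close to the minimum of 0.5. The call was lost without control replicate 1 (-0.52, edgeR adjusted p = 0.073), 2 (-0.49, 0.0911) or 3 (-0.48, 0.101), and without NOX4-deficient replicate 2 (-0.46, 0.0658) or 3 (-0.46, 0.102). Some reads of *Hspb6* may belong to *Proser3* on the opposite strand, which shares 5.31% of its exon bases and had a mean of 3.33 CPM in control muscle.

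*Cryab* encodes alphaB-crystallin, the small heat shock protein best known for binding desmin. It stood at 547, 537, 445 and 423 CPM in control mice and at 456, 257, 358 and 397 CPM in NOX4-deficient mice, so that NOX4-deficient replicate 1 lay within the control range. The log2 fold change was -0.41 (standard error 0.16, 95% interval -0.76 to -0.06, edgeR adjusted p = 0.145), and no alternative fit called it. Without NOX4-deficient replicate 2, the lowest library, it was -0.27. *Hspb8*, whose product is the preferred partner of BAG3, stood at 699, 567, 618 and 778 CPM in control mice and at 717, 609, 524 and 492 CPM in NOX4-deficient mice. NOX4-deficient replicates 1 and 2 lay among the controls and replicates 3 and 4 below them. Its log2 fold change was -0.19 (standard error 0.14, 95% interval -0.49 to 0.12, edgeR adjusted p = 0.469), an interval that includes 0 and reaches close to the threshold of 0.5 in size. It was -0.29 without NOX4-deficient replicate 1, and -0.12 and -0.09 without replicates 3 and 4, and -0.10 without control replicate 4.

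*Hspb2*, which binds the myotonic dystrophy kinase DMPK, stood at 27.1, 26.5, 27.4 and 22.1 CPM in control mice and at 40.2, 25.8, 43.8 and 29.8 CPM in NOX4-deficient mice. Replicates 1 and 3 of the NOX4-deficient mice were high, and replicate 2 lay within the control range. The log2 fold change was 0.44 (standard error 0.16, 95% interval 0.09 to 0.79, edgeR adjusted p = 0.123), and without NOX4-deficient replicate 2 it was 0.56 (edgeR adjusted p = 0.039). Its partner *Hspb3* stood at 12.5, 10.2, 13.1 and 12.2 CPM in control mice and at 20, 14.3, 19.7 and 14.1 CPM in NOX4-deficient mice. All 4 of the latter lay above every control, with replicates 1 and 3 again highest. The log2 fold change was 0.50 (standard error 0.15, 95% interval 0.18 to 0.83, edgeR adjusted p = 0.061). It was 0.58 without NOX4-deficient replicate 2 (edgeR adjusted p = 0.0445) and 0.60 without replicate 4 (edgeR adjusted p = 0.0434), and the adjusted p-values of DESeq2 and pydeseq2 were 0.0311 and 0.0333. *Hspb2* and *Cryab* are neighbours that share 252 exon bases on opposite strands in GENCODE M21, which is 30.2% of the exon bases of *Hspb2* and 17.0% of those of *Cryab*. The libraries are unstranded, so that reads from this stretch cannot be assigned to either gene.

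**Figure D2:**
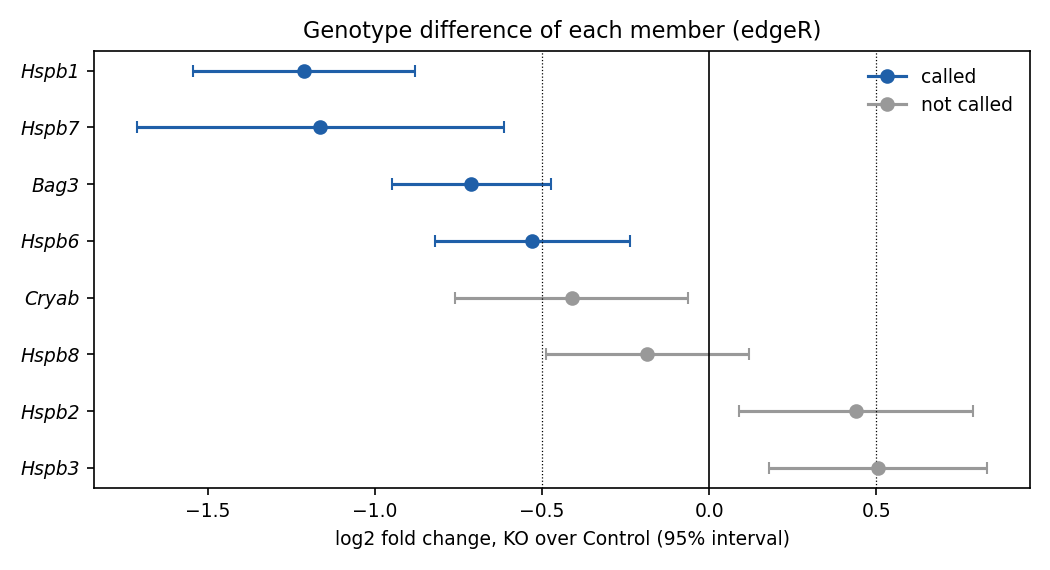
Log2 fold change of each gene, NOX4-deficient (KO) over control (x axis), with its 95% interval from edgeR's quasi-likelihood fit. Blue points are called genes and grey points are not, the solid line marks no difference and dotted lines mark the threshold of 0.5 in size. *Hspb1* and *Hspb7* lie near -1.2, and the intervals of *Hspb2* and *Hspb3* lie above 0.

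To compare members within a library, without any scaling between libraries, 3 ratios of counts were formed, 1 of neighbouring genes (*Hspb2* to *Cryab*) and 2 of partners. The ratio of *Hspb2* to *Cryab* was 0.0496, 0.0493, 0.0618 and 0.0523 in control mice and 0.0883, 0.1, 0.123 and 0.0753 in NOX4-deficient mice. Every NOX4-deficient library lay above every control library, a difference of 0.84 on the log2 scale (exact two-sided permutation test, p = 0.0286, the smallest the design allows, and 0.0857 after Benjamini-Hochberg adjustment over the 3 ratios). It thus did not pass the threshold after adjustment. The 2 genes share exon bases, as given above, so this ratio may depend on how reads from that stretch were assigned. The ratio of *Hspb8* to *Bag3* was 3.15, 2.76, 3.07 and 3.37 in control mice and 5.23, 5.62, 3.92 and 3.37 in NOX4-deficient mice. NOX4-deficient replicate 4 lay within the control range and the other 3 above it (log2 difference 0.53, exact two-sided permutation test, p = 0.0571, adjusted p = 0.0857). The ratio of *Hspb3* to *Hspb2* overlapped between genotypes, at 0.386 to 0.553 in control and 0.449 to 0.554 in NOX4-deficient mice (log2 difference 0.08, exact two-sided permutation test, p = 0.571, adjusted p = 0.571). Without control replicate 2 the last difference was -0.01.

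**Figure D3:**
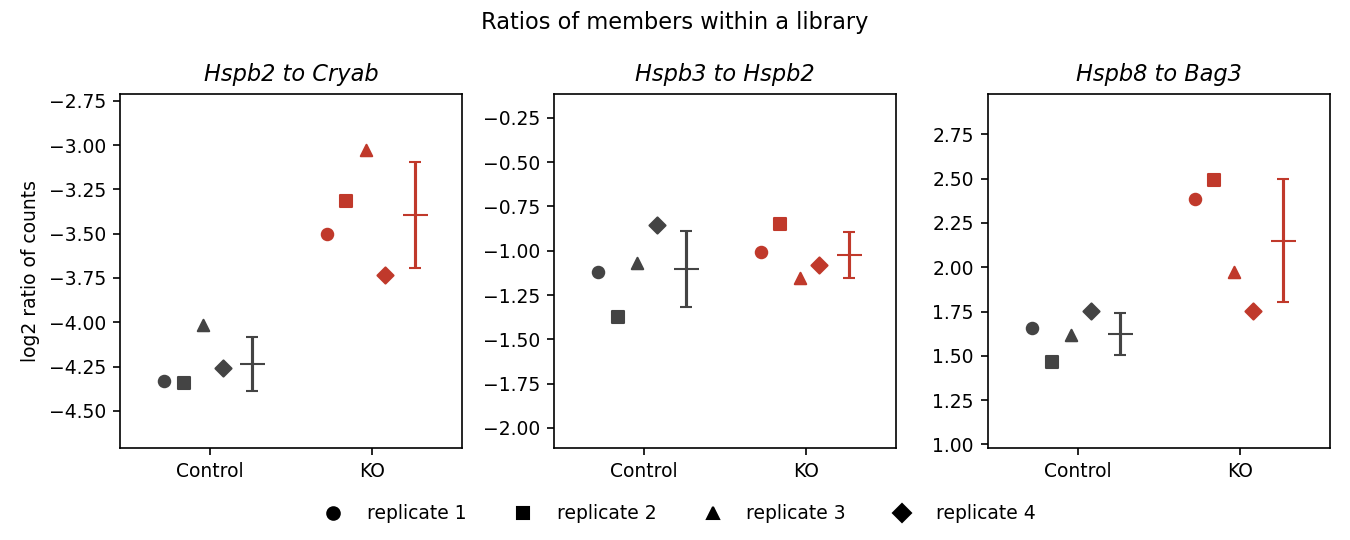
Log2 ratio of counts (y axis, each panel spanning 2 log2 units) of *Hspb2* to *Cryab*, *Hspb3* to *Hspb2* and *Hspb8* to *Bag3* in each control and NOX4-deficient (KO) library. Shapes give the replicate number and the bars give mean and SD. The *Hspb2* to *Cryab* ratio is higher in all 4 KO libraries, and the *Hspb3* to *Hspb2* ratio overlaps.

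Across the 8 libraries some members had profiles nearer to each other than others did. Likeness was measured as the root mean square distance between log2 levels centered on the mean of each gene, which is large where genotype differences differ. *Hspb2* and *Hspb3* were the nearest pair (0.154), followed by *Hspb6* and *Cryab* (0.170) and *Hspb6* and *Bag3* (0.214). *Hspb2* and *Hspb7* were the farthest apart (0.969). Among 6944 other genes with a mean over 10 CPM, those nearest to *Hspb1* were *Tmem37*, *Pnpla2*, which encodes adipose triglyceride lipase, *Twf2*, the actin-binding twinfilin, *Ppp1r27* and *Irf2bp2*, at distances of 0.129 to 0.171 against a median of 0.654. Their log2 fold changes ran from -1.34 to -1.11. Nearest to *Bag3* were *Utp14a*, *Rab7a*, the GTPase of late endosomes, *Vmp1*, which acts in autophagosome formation, *Sphk2* and *Ptges3*, the HSP90 co-chaperone p23, at 0.0837 to 0.108 against a median of 0.404. Their log2 fold changes ran from -0.82 to -0.63. Of the members, *Bag3* was nearest to *Hspb1*, at rank 53, and *Hspb6* was nearest to *Bag3*, at rank 211, so that many other genes lay nearer.

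The partners of these chaperones were examined as lists of genes. In the machinery of HSP70, HSP40, HSP110 and HSP90, 8 of 31 genes were called lower and none higher (3.48% and 2.68% of all genes), with 26 of 31 log2 fold changes negative and a median of -0.29. At an unadjusted p under 0.05, 17 of the 31 were lower and 1 was higher, *Hspa2* (0.41), and neither DESeq2 nor pydeseq2 called one higher. At least 1870 of the 12725 rows tested passed this unadjusted limit in either direction. *Hsp90aa1*, the inducible HSP90, fell from 80.4 ± 13.4 to 46.7 ± 3.11 CPM (SD, n = 4 each), a log2 fold change of -0.78, *Ptges3* had one of -0.68 and *Hspa1b*, an inducible HSP70, one of -1.75. *Hspa1a* had a log2 fold change of -1.61, but it is nearly identical to *Hspa1b*, so that the counting may have split reads between the 2 genes, and both were low, at 7.32 and 6.65 CPM in control muscle. *Hspa8*, the constitutive HSP70, stood at 1332, 1371, 1210 and 1218 CPM in control mice and at 1030, 818, 848 and 1004 CPM in NOX4-deficient mice. Its groups did not overlap and its adjusted p was 0.0242 (edgeR), but its log2 fold change of -0.47 was under the minimum, and it was called only without NOX4-deficient replicate 1 (-0.52) among the libraries left out in turn. *Dnajb6*, an HSP40 that works with BAG3 at the Z-disc, had a log2 fold change of -0.29 (edgeR adjusted p = 0.0974).

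Among 20 genes of chaperone-assisted selective autophagy, 2 were called lower and none higher (3.48% and 2.68% of all genes), and the median log2 fold change was -0.18. At an unadjusted p under 0.05, 7 genes were lower and 1 was higher, *Synpo2*, and DESeq2 and pydeseq2 called none higher. That unadjusted limit was passed by at least 1870 of the 12725 rows tested, in either direction. Filamin C (*Flnc*), the Z-disc crosslinker that BAG3 clears, stood at 1061, 1211, 1304 and 1881 CPM in control mice and at 517.5, 619, 360 and 682 CPM in NOX4-deficient mice. The genotypes were well separated, control replicate 4 was highest and NOX4-deficient replicate 3 lowest, as for *Hspb7*, and *Flnc* fell by 1.32 on the log2 scale (standard error 0.21, edgeR adjusted p = 0.00456). *Sqstm1*, the autophagy receptor p62, had a log2 fold change of -0.69 (edgeR adjusted p = 0.00456). *Stub1*, the ubiquitin ligase CHIP, had a log2 fold change of 0.23 (edgeR adjusted p = 0.407), or 0.08 without NOX4-deficient replicate 3, and *Synpo2*, the BAG3 partner that links it to autophagosomes, 0.30 (edgeR adjusted p = 0.168). Neither was called.

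Of the 5 other BAG genes none was called in either direction by edgeR, DESeq2 or pydeseq2 or at an unadjusted p under 0.05, with log2 fold changes from -0.16 for *Bag5* to 0.33 for *Bag2*. Of 4 other small heat shock proteins only *Hspb11* had enough counts to be tested (log2 fold change -0.26, edgeR adjusted p = 0.587). Of the 4 heat shock factor genes tested, *Hsbp1* included, 1 was called lower, against 3.48% of all genes. *Hsf2* fell from 45.5 ± 7.25 to 27.7 ± 2.87 CPM (SD, n = 4 each), a log2 fold change of -0.71 (edgeR adjusted p = 0.007). *Hsf1*, the principal factor of the heat shock response, had a log2 fold change of -0.14 (edgeR adjusted p = 0.456), or -0.08 without NOX4-deficient replicate 4.

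Tested were 12 kinases that act on or bind small heat shock proteins, or act upstream of those kinases. Of these, 1 was called higher and none lower (2.68% and 3.48% of all genes). *Map2k6*, which activates p38, rose from 20.1 ± 2.37 to 33.4 ± 3.46 CPM (SD, n = 4 each), a log2 fold change of 0.74 (edgeR adjusted p = 0.00401). *Mapkapk2*, the kinase that phosphorylates HSPB1, had a log2 fold change of -0.09 (edgeR adjusted p = 0.643), or -0.05 without control replicate 2 and -0.04 without NOX4-deficient replicate 2. At an unadjusted p under 0.05, 2 of the kinases were lower, *Map2k3* and *Prkd1* (-0.38 and -0.66), and 3 higher, *Map2k6*, *Prkaca* and *Dmpk* (0.74, 0.24 and 0.32). Over all 12725 rows tested, at least 1870 passed this unadjusted limit in either direction. DESeq2 called 1 kinase lower, *Prkd1*, and pydeseq2 none. Among 23 cytoskeletal genes whose products small heat shock proteins bind or shelter, 3 were called lower and none higher (3.48% and 2.68% of all genes). Their median difference was -0.01 on the log2 scale. At an unadjusted p under 0.05, 4 were lower and 1 higher, *Nes* (0.43), and DESeq2 and pydeseq2 called none higher. *Xirp1*, a filamin-binding protein of repair sites, fell by 1.83 on the log2 scale, from 393 ± 34.5 to 111 ± 41.0 CPM (SD, n = 4 each). The values for *Actn2* (alpha-actinin) and *Myot* (myotilin) were -0.89 and -0.55, and *Myot* was not called without control replicate 3 (-0.51) or NOX4-deficient replicate 1 or 2 (-0.49 in both). Desmin (*Des*) had a log2 fold change of 0.01 (edgeR adjusted p = 0.973).

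**Figure D4:**
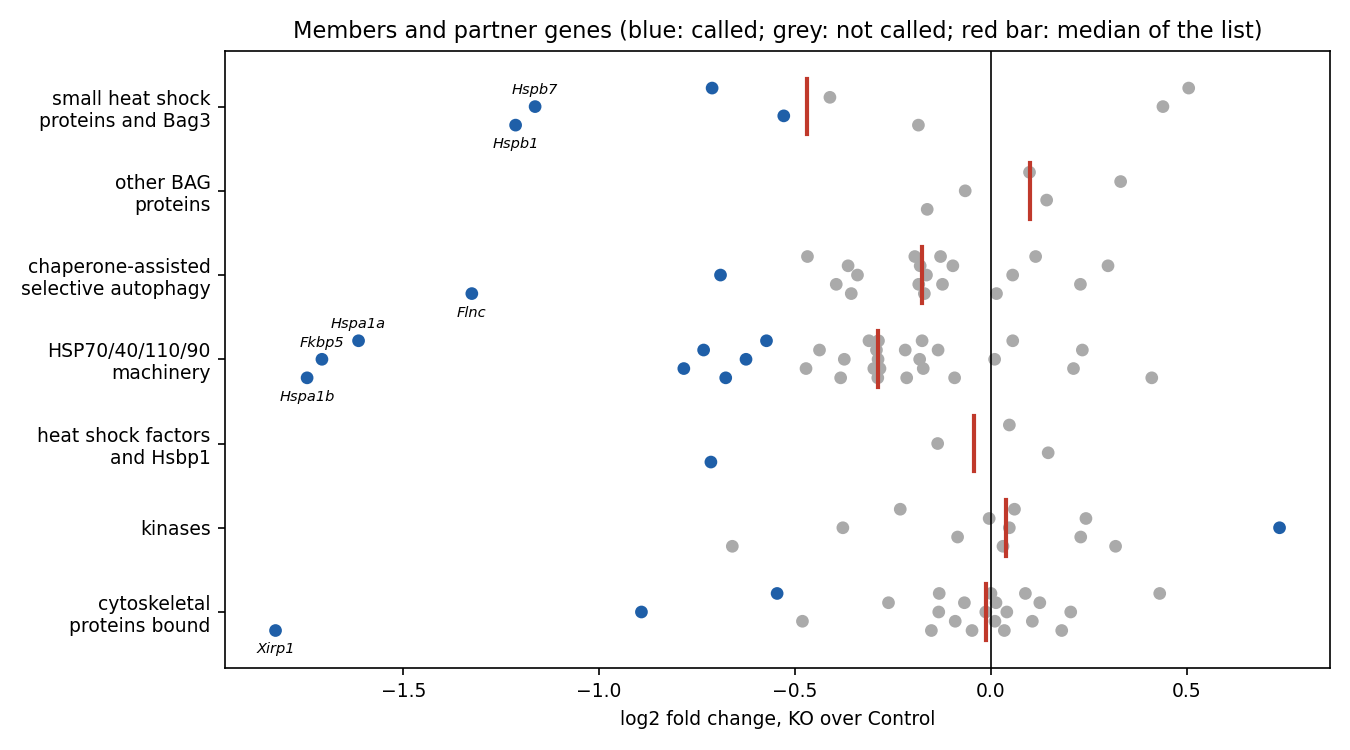
Log2 fold change, NOX4-deficient (KO) over control (x axis), of each tested gene of 7 lists. Blue points are called genes, grey points are not, red bars give the median of the list, and called genes beyond 1 in size are named. The medians lie at -0.47 for the small heat shock proteins and *Bag3* and at -0.29 for the HSP70 to HSP90 machinery.

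Small heat shock proteins are richer in slow fibers, and *Hspb1*, *Hspb6* and *Cryab* are also expressed in smooth muscle, so the markers of these cells are given beside them. All 10 slow-fiber markers had positive log2 fold changes (median 0.64), of which *Casq2* was called, and their summed level ran from 1024 to 1995 CPM in control and from 1264 to 2866 CPM in NOX4-deficient muscle. *Myh7*, the slow myosin, was at 39.3 ± 25.1 and 86.5 ± 69.9 CPM (SD, n = 4 each). Of 8 smooth muscle and pericyte markers edgeR called none (3 higher at an unadjusted p under 0.05, and 1 higher by DESeq2 and by pydeseq2), 7 were positive, and their summed level ran from 411 to 503 CPM and from 491 to 620 CPM, with *Myh11* at 35.1 ± 3.39 and 40.3 ± 7.34 CPM. The slow-fiber sum stood at 1331, 1267, 1264 and 2866 CPM in NOX4-deficient replicates 1 to 4, so that only replicate 4 lay above the control range. Among the members, *Hspb2* and *Hspb3* also had positive log2 fold changes, and 6 had negative ones. The part of fiber type and of other cells in the differences was not tested.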

How the data were processed

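RNA from gastrocnemius muscle was sequenced as poly(A), unstranded, paired-end libraries and the authors ran the nf-core workflow for RNA-seq on the reads. The submitters' notes name STAR and GRCm39, and the annotation is not given in the sources used here. The deposited values are unnormalized gene counts, with a column for each mouse. No column was left unmatched. Labels place all samples in 1 batch.

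Counts were fitted in R 4.3.3 with edgeR 4.0.16 (TMM, filterByExpr, estimateDisp, robust glmQLFit, glmQLFTest) on all 8 libraries with a term for genotype alone, and Benjamini-Hochberg adjustment covered 12725 rows. Intervals use the standard error and the degrees of freedom of that fit. A repeated name stands for its row with most counts. Ratios had 0.5 counts added to each gene, and distances used log2(CPM + 0.5). Lengths came from GENCODE M21 (GRCm38) and promoters from RefSeq. Totals of 16350548 to 19804661 counts limit precision for genes of few counts, such as *Nox4*. The results of 1 marker list are not reported here.

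The members and lists were chosen with earlier results of these data known. Named genes are the members, *Nox4*, up to 3 called genes with the smallest p-values per list and direction, preset partners, defining markers, called markers, and the 5 genes nearest to *Hspb1* and to *Bag3*. *Acta1*, *Bag2*, *Bag5*, *Dmpk*, *Hsbp1*, *Hspa2*, *Hspb11*, *Map2k3*, *Nes*, *Prkaca*, *Prkd1* and *Proser3* fall outside it and were chosen after their values were seen. Alternatives were DESeq2's size factors, library size only, 2 other filters, a fit that was not robust, DESeq2 1.42.0, pydeseq2 0.5.4, the replicate number as a block, a term for odd and even numbers, other thresholds and each library left out.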

Additional observations from a re-analysis of the deposited data

Results flagged for a closer look

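A library was set apart where its gap to the nearest of the 4 libraries of its genotype, divided by their range, exceeded Dixon's 95% critical value. Among 54 groups of 4 (27 named genes in each genotype) this held for 3, where chance gives about 2.7 (1 in 20). *Hspb7* was highest in control replicate 4, at 719 CPM (ratio 0.864). *Nox4* was lowest in NOX4-deficient replicate 1, at 1.74 CPM (ratio 0.918). *Map2k6* was highest in NOX4-deficient replicate 4, at 38.6 CPM (ratio 0.908).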

How the results depend on the processing

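The lower level of *Hspb1* and *Bag3* was called in all 17 alternative fits, and *Cryab* and *Hspb8* in none. *Hspb3* was called higher by DESeq2 (0.50, adjusted p = 0.0311) and by pydeseq2 (0.50, 0.0333), and *Hspb7* was lost with no filter on low counts (-1.17, 0.0876). Log2 fold changes with each library left out ran from 0.32 to 0.56 for *Hspb2*, from 0.43 to 0.60 for *Hspb3*, from -0.62 to -0.46 for *Hspb6*, from -1.37 to -0.97 for *Hspb7*, from -0.29 to -0.09 for *Hspb8*, from -0.52 to -0.27 for *Cryab* and from -0.04 to 0.07 for *Des*, and the log2 ratio of *Hspb3* to *Hspb2* from -0.01 to 0.16. Members called lower numbered 2 to 4 and higher 0 to 2 over those fits. They numbered 2 lower at an adjusted p under 0.01, and 1 higher by DESeq2 and by pydeseq2. Over all genes, 295 to 425 were lower and 204 to 317 higher with a library left out, and 156 and 96 at an adjusted p under 0.01. Among the lists, autophagy genes called lower numbered 4 with no minimum fold, chaperone machinery 4 and cytoskeletal genes 1 at an adjusted p under 0.01, kinases 1 by DESeq2, and 1 cytoskeletal gene was higher with no minimum fold or without control replicate 2. The causes of these shifts were not tested. Deviations of same-numbered libraries correlated at 0.223, 0.147, 0.0410 and 0.0412, so the numbers were not taken to pair the mice. With the replicate block 4 members were lower and 0 higher, *Hspb3* differed by 0.49 (edgeR adjusted p = 0.0306), just under the minimum fold, and 543 genes were lower and 390 higher overall. For the ratios the replicate block leaves the differences at 0.84, 0.08 and 0.53 by construction, and exact permutation within numbers gave unadjusted p = 0.125, the smallest it can give, 0.75 and 0.25.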

Other observations

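Of the other cell types a gastrocnemius sample could hold, blood showed the clearest shift. *Hba-a1* rose from 14.1 ± 1.11 to 33.5 ± 12.8 CPM and *Hbb-bs* from 35.4 ± 2.01 to 70.9 ± 26 CPM (SD, n = 4 each), with edgeR adjusted p-values of 0.00978 and 0.0153, and the summed blood markers ran from 47.6 to 52.7 CPM in control and from 72.3 to 159 CPM in NOX4-deficient muscle. The endothelial *Vwf* rose (log2 fold change 0.74, edgeR adjusted p = 0.0129), as did the slow-fiber calsequestrin *Casq2* (1.02, edgeR adjusted p = 0.022), while *Pecam1* had a log2 fold change of -0.12 and was not called. EdgeR called no gene among the tested markers of fast fibers (11), satellite cells (4), adipocytes (7), immune cells (7) or fibroblasts and tendon (9), or among 10 immediate early genes. Their median log2 fold changes were 0.10, -0.09, 0.32, -0.47, 0.61 and -0.15 in that order. At an unadjusted p under 0.05 the lower genes numbered 0, 1, 0, 2, 0 and 2 and the higher genes 1, 1, 0, 0, 3 and 0 in the same order. DESeq2 and pydeseq2 each called 1 fast-fiber marker higher and 1 satellite cell marker and 1 immediate early gene lower. The defining markers *Pax7* (0.67), *Adipoq* (0.87), *Ptprc* (-0.90) and *Pdgfra* (-0.32) were measured in all 8 libraries.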
